A study of Mus musculus with 6 samples.

Results

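The 10 genes described here encode peptidases and structural proteins of the brush border, the layer of microvilli on the apical face of the proximal tubule. They were taken by symbol: Mep1a, Mep1b, Dpp4, Anpep, Dpep1, Xpnpep2 and Ggt1 for the 7 peptidases and Vil1, Myo7b and Cdhr5 for the 3 structural genes. All 10 symbols were found among the 24434 in the count table, and all 10 passed the filter on low counts. The data are polyadenylated RNA from whole kidney of mice on normal chow, with 3 libraries labelled db/db, the diabetic model, and 3 labelled db/m, the control. The db allele disrupts the leptin receptor in every cell, so a difference cannot be assigned to the kidney, and db/m animals carry the allele on 1 chromosome. The sources used here do not give age, sex, strain background or the meaning of m. Whether each library is a different mouse is not stated either, and p-values therefore speak only of the spread among these libraries, which may be technical.

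Proximal tubule cells reabsorb what the glomerulus filters, and their microvilli carry peptidases that cut filtered peptides into amino acids and dipeptides that transporters can take up. A microvillus is a bundle of actin filaments, crosslinked by proteins such as villin, with its tip tied to neighbouring tips by protocadherins that a myosin motor and scaffold proteins hold in place. Several of the peptidases also cut hormones and signalling peptides, and the pair Ggt1 and Dpep1 takes apart glutathione outside the cell.

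Libraries held 25937756 to 35931140 counts, and a count of 0 would allow at most 0.120 CPM. CPM here means counts per 1000000 after scaling each library by its TMM factor, which ran from 1.06 to 1.12 under db/m and from 0.901 to 0.923 under db/db. Proximal tubule RNA was present in every library, with the phosphate transporter gene Slc34a1 at 4033 to 8185 CPM. Of 16373 genes tested with the edgeR quasi-likelihood test, 13.1% were called higher and 10.8% lower in db/db at a Benjamini-Hochberg adjusted p below 0.05. The db/db libraries lay above all db/m libraries for 22.4% of genes and below them for 22.2%.

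Of the 10 brush border genes, 6 were called higher in db/db and 2 lower, against those shares of all genes. The rises were largest for Mep1b, Mep1a and Ggt1, at 2.7 to 3.5-fold, while Vil1, Cdhr5 and Anpep rose by 1.3 to 1.5-fold, Dpp4 and Xpnpep2 fell, and Dpep1 and Myo7b were not called. The median log2 fold change was 0.47 for the 10 genes and -0.06 for all genes tested. How many rose changed with the scaling. When libraries were scaled by total counts, 3 were called higher (Mep1a, Mep1b and Ggt1) and 2 lower, while over all genes 1072 were then higher and 4883 lower instead of 2151 and 1774. That scaling lowered the median log2 fold change of all genes by 0.26.

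**Figure D1:**
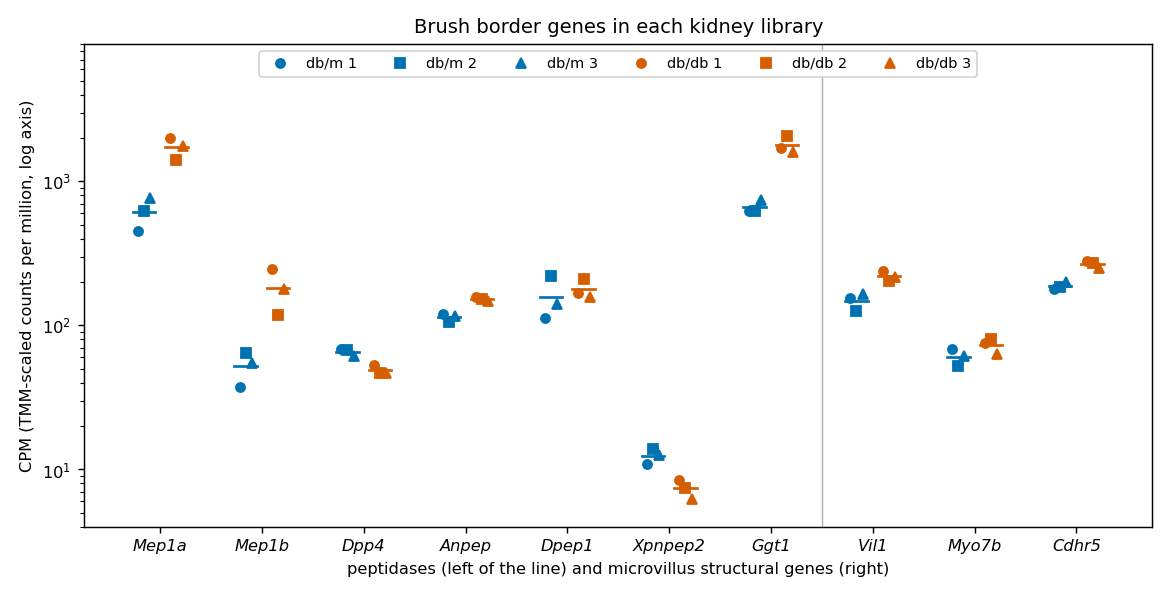
Level of each brush border gene in CPM (log axis) in the 3 db/m libraries (blue) and the 3 db/db libraries (orange), with group means as horizontal lines. The groups stand apart for 8 genes, with db/db above for 6 and below for 2, and overlap for Dpep1 and Myo7b. Of all genes tested, db/db lay above for 22.4% and below for 22.2%. Mep1a, Mep1b and Ggt1 have the widest gaps.

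Meprins are zinc endopeptidases built from alpha subunits, encoded by Mep1a, and beta subunits, encoded by Mep1b. The beta subunit is anchored in the membrane, and alpha subunits stay at the surface by pairing with it. Mep1a stood at 451, 626 and 768 CPM in db/m replicates 1 to 3 and at 2017, 1404 and 1759.6 CPM in db/db replicates 1 to 3. Every db/db library was above every db/m library. The log2 fold change was 1.49 (SE 0.22, edgeR adjusted p = 0.00396), a 2.81-fold rise. Mep1b stood at 37.7, 64.6 and 55.1 CPM under db/m and at 248, 118 and 180.1 CPM under db/db. The groups again did not overlap, although db/db replicate 1 was at more than 2 times the level of db/db replicate 2. Its log2 fold change was 1.79 (SE 0.30, edgeR adjusted p = 0.00662), or 3.46-fold. Leaving out replicate 3 of both groups kept the size of the Mep1b change (1.84) but ended its call (edgeR adjusted p = 0.0608).

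The ratio of the 2 meprin genes was compared within each library. Mep1b had 0.0835, 0.103 and 0.0717 counts for each Mep1a count in db/m replicates 1 to 3, and 0.123, 0.0837 and 0.102 in db/db replicates 1 to 3. The log2 ratio differed by 0.26 between group means, with overlapping groups (exact permutation test, two-sided, p = 0.4, n = 3 each, where the smallest possible p is 0.1). This ratio does not depend on the scaling of the libraries. Both genes were lowest in db/m replicate 1 and highest in db/db replicate 1.

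Among 11084 other genes with an average of at least 2 on the log2 CPM scale, those with profiles over the 6 libraries nearest to Mep1a were Tmlhe, Ppic and Cmtm6. Their mean-centred log2 CPM profiles were within a root mean square difference of 0.11 to 0.14 of its own. Tmlhe, which encodes the first enzyme of carnitine synthesis, stood at 8.05 ± 1.42 CPM in db/m and 21.6 ± 3.48 CPM in db/db (SD, n = 3). Nearest to Mep1b was Spats2l, at a root mean square difference of 0.086, followed by Myo5a and Chst3 at 0.20 and 0.21. Myo5a, which encodes an actin-based transport motor, stood at 9.01, 18.1 and 17.9 CPM under db/m and 86.0, 41.1 and 63.7 CPM under db/db. It was high and low in the same libraries as Mep1b, which follows from its selection by profile.

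Ggt1 encodes gamma-glutamyltransferase, the enzyme that takes the glutamyl group off extracellular glutathione and leaves cysteinylglycine. It stood at 619, 627 and 743 CPM in db/m replicates 1 to 3 and at 1712, 2052 and 1613 CPM in db/db replicates 1 to 3. Its lowest db/db library was at more than 2 times its highest db/m library. The log2 fold change was 1.44 (SE 0.13, edgeR adjusted p = 0.000769), or 2.70-fold, and it ranked 172 by p among the genes tested.

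Dpep1 encodes the membrane dipeptidase that splits cysteinylglycine and converts leukotriene D4. It stood at 113, 219 and 142 CPM under db/m and at 169, 211 and 157 CPM under db/db. The highest library of all was db/m replicate 2, and the groups overlapped. No difference passed the test, and the log2 fold change of 0.18 (95% interval -0.39 to 0.74, edgeR adjusted p = 0.613) turned to -0.09 with total counts only. Without db/m replicate 2 it was 0.50 (edgeR adjusted p = 0.0936).

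For each Ggt1 count, libraries held 0.182, 0.350 and 0.191 Dpep1 counts in db/m replicates 1 to 3 and 0.0987, 0.103 and 0.0971 in db/db replicates 1 to 3. All db/db libraries were below all db/m libraries, and they lay close together. The mean log2 ratio was -3.33 ± 0.04 in db/db and -2.12 ± 0.52 in db/m (SD, n = 3), a difference of -1.21 (exact permutation test, two-sided, p = 0.1, the smallest possible). Without db/m replicate 2 the difference was -0.91.

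**Figure D2:**
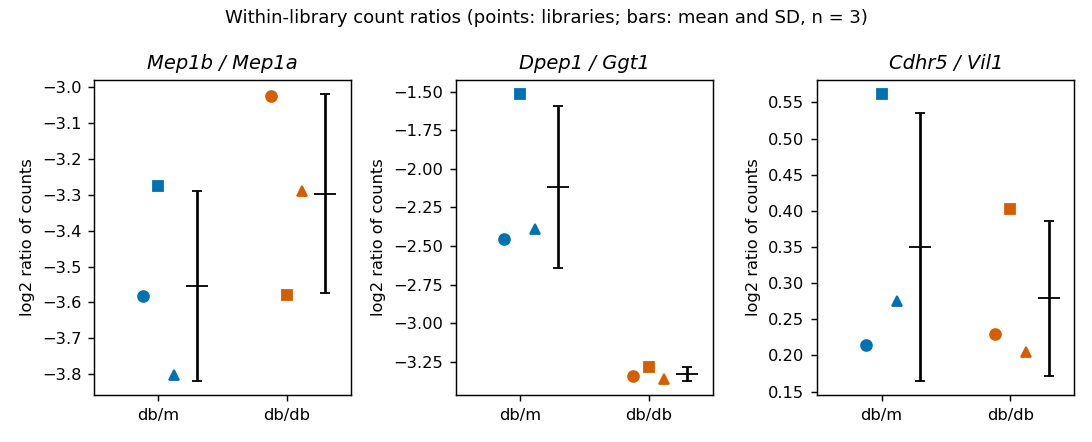
Log2 ratio of counts for Mep1b to Mep1a, Dpep1 to Ggt1 and Cdhr5 to Vil1 in each library, with symbols for the replicate number and bars for the mean and SD of 3 libraries. The Dpep1 to Ggt1 ratio is lower in all 3 db/db libraries, whereas the other ratios overlap between groups.

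The exopeptidases, which trim residues from the ends of peptides, went in both directions. Anpep encodes aminopeptidase N, which removes neutral residues from the amino end. It stood at 119.7, 106 and 116 CPM under db/m and at 158, 153 and 148 CPM under db/db, without overlap. The log2 fold change was 0.42 (SE 0.08, edgeR adjusted p = 0.00984). This call ended with total counts only (0.16, edgeR adjusted p = 0.134), and the sign turned to -0.15 when libraries were scaled to pan-proximal tubule markers.

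Dpp4 encodes dipeptidyl peptidase 4, which removes dipeptides after proline or alanine and inactivates incretin hormones. It fell from 68.1, 67.2 and 61.1 CPM in db/m replicates 1 to 3 to 53.2, 46.6 and 46.5 CPM in db/db replicates 1 to 3. The db/db libraries were all below the db/m libraries, and the log2 fold change was -0.42 (SE 0.09, edgeR adjusted p = 0.0157). The call ended when db/m replicate 2 was left out (edgeR adjusted p = 0.06), and likewise for db/db replicate 2 (0.0582) and db/db replicate 3 (0.0686), with log2 fold changes between -0.40 and -0.39.

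Xpnpep2, which encodes the membrane-bound aminopeptidase P that cuts before proline and degrades bradykinin, had the lowest level of the 10 genes. It stood at 10.9, 13.8 and 12.6 CPM under db/m and at 8.43, 7.45 and 6.28 CPM under db/db, from 172 to 546 counts a library. The groups did not overlap, and the log2 fold change was -0.75 (SE 0.17, edgeR adjusted p = 0.0175). Leaving out the same libraries 1 at a time ended this call too (edgeR adjusted p = 0.066, 0.0554 and 0.061). Both falls were larger with total counts only, at -0.68 for Dpp4 and -1.02 for Xpnpep2, and both stayed called. That scaling gave 4883 lower calls over all genes instead of 1774.

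The 3 structural genes had smaller log2 fold changes than the meprins and Ggt1. Vil1 encodes villin, which bundles and severs actin filaments in the microvillus core. It stood at 154, 125 and 165 CPM under db/m and at 239, 204 and 218 CPM under db/db, with no overlap. The log2 fold change of 0.57 (SE 0.12, edgeR adjusted p = 0.0152) was 0.31 with total counts only (edgeR adjusted p = 0.0886). The call also ended without db/db replicate 1 (edgeR adjusted p = 0.0534) or db/db replicate 3 (edgeR adjusted p = 0.0503).

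Cdhr5 encodes a protocadherin of the links between microvillus tips. It stood at 179, 185 and 199 CPM under db/m and at 280.0, 270.0 and 251 CPM under db/db, again apart. The log2 fold change of 0.51 (SE 0.08, edgeR adjusted p = 0.00636) lost its call with total counts only (0.25, edgeR adjusted p = 0.0693) and turned to -0.07 with scaling to pan-proximal tubule markers. Cdhr5 and Anpep had the most alike profiles of any 2 of the 10 genes, with a root mean square difference of 0.083 in mean-centred log2 CPM. The log2 ratio of Cdhr5 to Vil1 differed by -0.07 between group means, with overlapping groups (exact permutation test, two-sided, p = 0.6, n = 3 each).

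Myo7b encodes the myosin that holds the tip links in place. It stood at 68.5, 52.0 and 61.1 CPM under db/m and at 75.1, 81.0 and 63.0 CPM under db/db, and the groups overlapped. The log2 fold change of 0.27 (95% interval -0.04 to 0.58, edgeR adjusted p = 0.177) was 0.01 with total counts only. With scaling to pan-proximal tubule markers it was -0.30 (edgeR adjusted p = 0.0479). On that scaling 9251 of the 16373 genes tested were called lower, with a median over all genes of -0.63, below that of Myo7b.

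**Figure D3:**
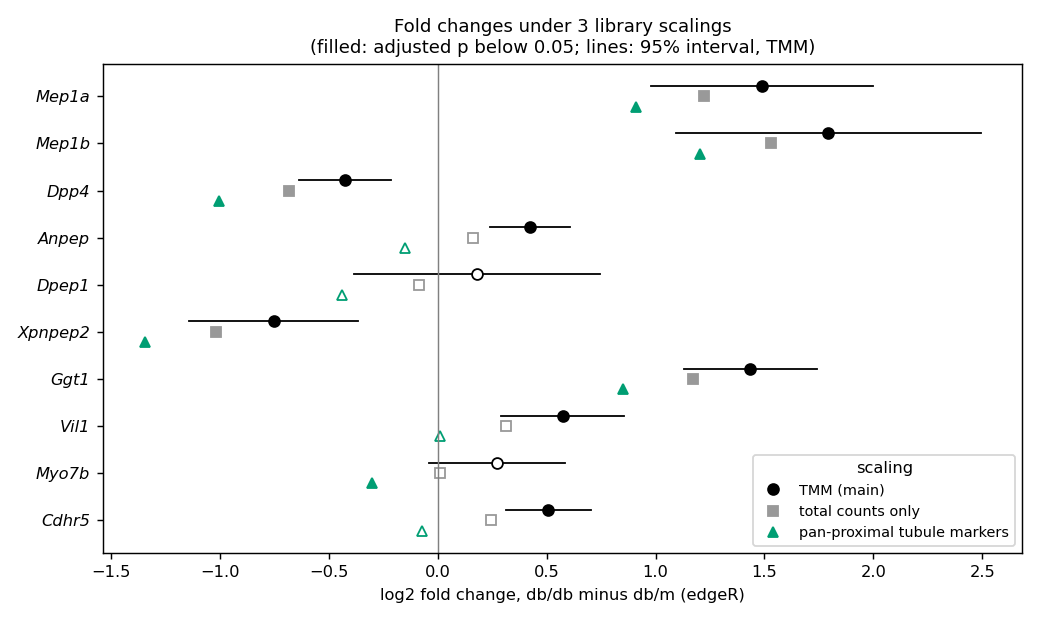
Log2 fold change of each gene, db/db minus db/m, under TMM scaling (black, with 95% intervals), total counts only (grey) and scaling to pan-proximal tubule markers (green), with filled symbols for an adjusted p below 0.05. Mep1a, Mep1b, Ggt1, Dpp4 and Xpnpep2 keep sign and call under all 3 scalings, whereas Anpep, Vil1 and Cdhr5 lose their calls under both others, where the signs of Anpep and Cdhr5 turn with the marker scaling.

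The marker scaling asks how each gene moved relative to 11 genes listed as markers of the whole proximal tubule. Of these, 4 were called higher and 0 lower in edgeR, against 13.1% and 10.8% of all genes tested. The markers had 10 of 11 log2 fold changes above 0. At an unadjusted p below 0.05, and also in DESeq2, 7 were higher and 1 lower. Their log2 fold changes ran from -0.40 to 1.76, so the result depends on which markers are listed. The marker scaling lowered the median log2 fold change of all genes by 0.58 against TMM scaling, and gave 532 genes called higher and 9251 lower. On it, Mep1a, Mep1b and Ggt1 stayed higher by 0.91, 1.20 and 0.85 (edgeR adjusted p = 0.0112, 0.013 and 0.00143). Dpp4 and Xpnpep2 were lower, with log2 fold changes of -1.002 and -1.34, and Myo7b was also called lower. In RNA of whole kidney, fewer cells of a type and less RNA per cell cannot be told apart.

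Levels were compared between genes as CPM per kilobase of annotated exons, since longer transcripts give more fragments. In db/db, Ggt1 (526 ± 67.5) and Mep1a (500.2 ± 89.2, SD, n = 3) led and did not differ beyond their spread. Cdhr5 followed at 97.5 ± 5.38, above Dpep1 at 71.97 ± 11.5 and Vil1 at 62.0 ± 4.90 in every library. Mep1b, at 69.3 ± 24.9, overlapped all 3 of these genes, and Dpep1 overlapped Vil1. Anpep came next at 37.0 ± 1.14, then Myo7b at 11.03 ± 1.38, Dpp4 at 7.72 ± 0.608 and Xpnpep2 at 1.51 ± 0.221 CPM per kilobase.

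In db/m the same 2 genes led, Ggt1 at 194 ± 20.3 and Mep1a at 178 ± 46.1 CPM per kilobase. Cdhr5 stood at 68.5 ± 3.76, Dpep1 at 63.5 ± 22.2 and Vil1 at 41.7 ± 5.77, and Dpep1 overlapped both of the others. Below them were Anpep at 27.6 ± 1.69 and Mep1b at 20.0 ± 5.21. Dpp4 at 10.4 ± 0.603 and Myo7b at 9.14 ± 1.25 overlapped, and Xpnpep2 was lowest at 2.55 ± 0.304. By mean, Mep1b ranked 7 of 10 in db/m and 5 of 10 in db/db.

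Together the 10 genes took 0.193% to 0.260% of all counts in db/m and 0.407% to 0.457% in db/db. Mep1a and Ggt1 made up 58.7% to 65.1% of their summed CPM in db/m and 75.2% to 76.0% in db/db. Without these 2 genes, the sums were 751 to 833 CPM in db/m and 1069.7 to 1230.2 CPM in db/db.

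Other peptidases and hydrolases of the brush border were also called in both directions. Of 8 listed, 7 were tested, of which 2 were called higher and 2 lower, with a median log2 fold change of -0.04. Over all genes tested, 13.1% were called higher and 10.8% lower. Ace, the angiotensin converting enzyme gene, stood at 29.0, 73.4 and 60.8 CPM under db/m and at 317, 242 and 257 CPM under db/db, a log2 fold change of 2.32 (SE 0.32, edgeR adjusted p = 0.00323). Treh, which encodes trehalase, rose from 71.3 ± 21.5 to 199 ± 9.17 CPM. Folh1, which encodes glutamate carboxypeptidase II, fell from 142, 168 and 129 CPM to 35.4, 41.6 and 42.1 CPM, a log2 fold change of -1.88 (SE 0.13, edgeR adjusted p = 0.00023). Alpl, the tissue-nonspecific alkaline phosphatase gene, fell by 1.06 on the log2 scale (SE 0.10). No call was made for the neprilysin gene Mme (-0.04) or the aminopeptidase A gene Enpep (-0.28). Enpep was called lower with total counts only (-0.54), with the marker scaling (-0.86) and without db/m replicate 3 (-0.36). Over all genes, 4883 were called lower with total counts only and 9251 with the marker scaling.

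Partners of Cdhr5 and Myo7b in the tip-link complex were called in both directions. Calml4, a light chain of this myosin, rose from 186 ± 14.9 to 347 ± 17.3 CPM, a log2 fold change of 0.90 (SE 0.09, edgeR adjusted p = 0.00115). Ush1c, which encodes the scaffold harmonin, stood at 116, 114 and 112 CPM under db/m and 208, 235 and 191 CPM under db/db, a log2 fold change of 0.89 (SE 0.09, edgeR adjusted p = 0.00133). Anks4b, another scaffold, fell by 0.45 on the log2 scale (SE 0.11, edgeR adjusted p = 0.0226). That call ended when any library except db/m replicate 3 was left out (edgeR adjusted p = 0.0605 to 0.0849). Cdhr2, the protocadherin that Cdhr5 binds, stood at 39.0, 59.4 and 61.0 CPM under db/m and 63.4, 32.5 and 42.5 CPM under db/db, and was not called (log2 fold change -0.21, edgeR adjusted p = 0.598). With scaling to pan-proximal tubule markers it was called lower (-0.79, edgeR adjusted p = 0.0429), as were 9251 of the 16373 genes tested.

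Over 21 other microvillus genes, 20 were tested, with a median log2 fold change of -0.04. Of the 20, 5 were called higher and 3 lower, against 13.1% and 10.8% of all genes tested. These counts changed with the scaling. With total counts only 4 were higher and 6 lower, where all genes gave 1072 and 4883. With scaling to pan-proximal tubule markers 3 were higher and 12 lower, where all genes gave 532 and 9251. Vill, which encodes a villin-like protein, had the largest rise, from 31.7 ± 4.70 to 157.0 ± 9.44 CPM. Prom1, which encodes a cholesterol-binding protein of microvilli, fell by 1.34 on the log2 scale (SE 0.11), and Pls1, the fimbrin gene, by 0.56 (SE 0.12, edgeR adjusted p = 0.0145). The Pls1 call ended without db/db replicate 2 or db/db replicate 3 (edgeR adjusted p = 0.0551 and 0.0549), and in each of these cases 1 gene of the list was called lower.

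The genes of glutathione synthesis and breakdown around Ggt1 moved mostly in its direction. Of 12 listed, 10 were called higher, against 13.1% of all genes tested. All 12 log2 fold changes were above 0, with a median of 0.98 against -0.06 over all genes tested. With total counts only, 11 of the 12 were above 0, and with scaling to pan-proximal tubule markers 8 were above 0 and 6 were called higher. Cndp2, a cytosolic dipeptidase gene whose enzyme also splits cysteinylglycine, stood at 324, 279 and 332 CPM under db/m and at 2235, 2909 and 2162 CPM under db/db. Its log2 fold change was 2.97 (SE 0.15, edgeR adjusted p = 7.68e-05). Ggct, which encodes gamma-glutamylcyclotransferase, rose from 12.3 ± 2.90 to 61.8 ± 5.26 CPM. Gss, the second enzyme of glutathione synthesis, rose from 218 ± 11.0 to 431 ± 12.1 CPM.

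**Figure D4:**
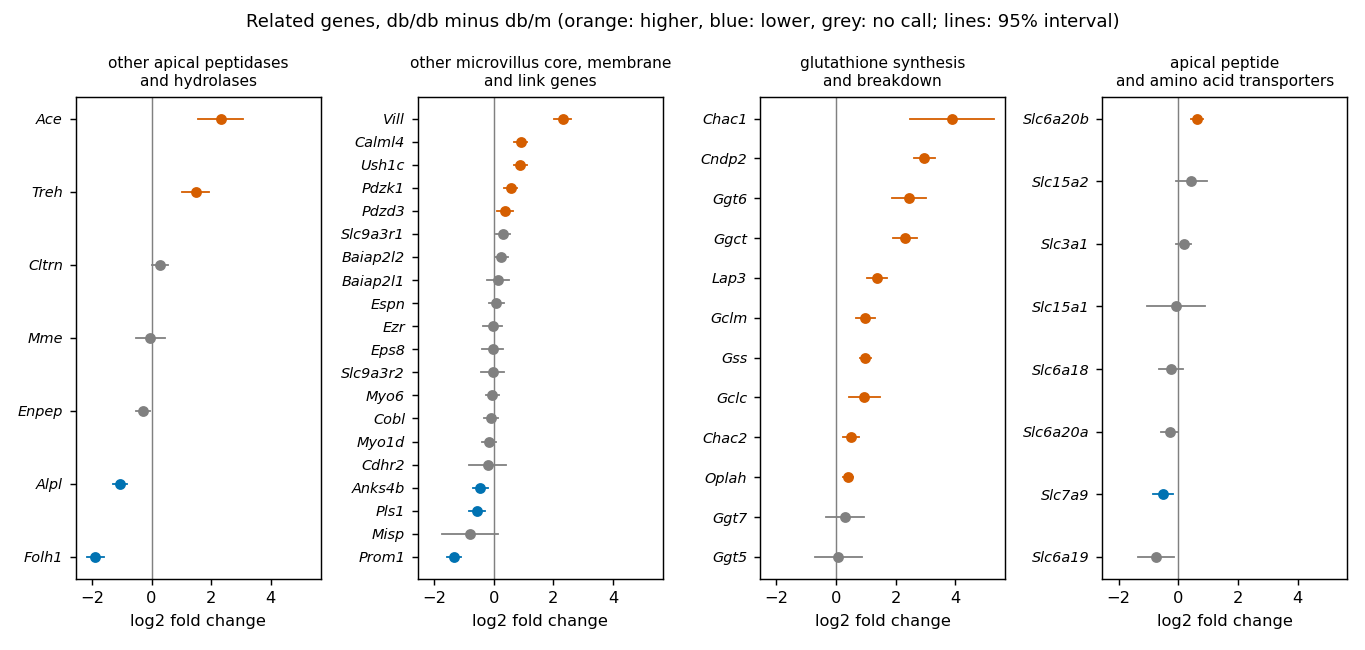
Log2 fold change (db/db minus db/m, TMM scaling) with 95% intervals for tested genes of 4 related lists, coloured by call. All 12 glutathione genes lie above 0 on this scaling (8 with scaling to pan-proximal tubule markers), and 10 are called higher, while apical hydrolases and microvillus genes lie on both sides.

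The starts of these genes were examined because hepatocyte nuclear factor 4 is a regulator of proximal tubule genes. Promoter windows in the RefSeq table (GRCm38.p6) were matched by symbol for 8 genes, Mep1a, Dpp4, Anpep, Dpep1, Xpnpep2, Ggt1, Vil1 and Cdhr5, with 4 start sites for Ggt1. The core motif CAAAGT of this factor, on either strand, was in 3 of these 11 windows of 250 bases before the start, and in 12.6% of all 32851 windows. The 3 belong to Mep1a, Dpep1 and 1 start of Ggt1. Shown here are Mep1a, which rose and holds the motif, Dpep1, which holds it and passed no test, and Dpp4, which fell and does not hold it. Capitals mark CAAAGT or its reverse complement.
Mep1a (chr17:43502774-43503023, minus strand): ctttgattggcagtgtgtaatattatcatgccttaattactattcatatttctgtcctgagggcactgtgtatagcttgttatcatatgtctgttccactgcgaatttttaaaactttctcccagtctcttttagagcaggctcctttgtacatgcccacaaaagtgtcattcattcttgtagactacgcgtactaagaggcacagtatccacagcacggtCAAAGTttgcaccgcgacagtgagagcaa
Dpep1 (chr8:123185985-123186234, plus strand): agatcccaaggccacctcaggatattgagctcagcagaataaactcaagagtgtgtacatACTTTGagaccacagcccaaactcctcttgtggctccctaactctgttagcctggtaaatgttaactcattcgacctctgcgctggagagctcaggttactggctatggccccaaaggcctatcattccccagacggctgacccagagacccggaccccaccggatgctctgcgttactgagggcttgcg
Dpp4 (chr2:62412232-62412481, minus strand): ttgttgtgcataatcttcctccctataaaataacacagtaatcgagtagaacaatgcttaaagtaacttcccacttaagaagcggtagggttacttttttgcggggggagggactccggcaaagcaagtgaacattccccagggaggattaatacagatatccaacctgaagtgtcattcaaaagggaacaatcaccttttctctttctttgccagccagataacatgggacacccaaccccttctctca
In Mep1a the match began 29 bases before the start, and in Dpep1 it began 190 bases before. The shares of G and C were 41.6% for Mep1a, 53.6% for Dpep1 and 43.6% for Dpp4, against a median of 52.4% over all windows. A match describes letters and not binding. Of the genes of this factor, Hnf4a had a log2 fold change of 0.31 without a call in edgeR (adjusted p = 0.0866), and -0.26 with scaling to pan-proximal tubule markers. It was called higher in DESeq2 (0.33, adjusted p = 0.0343) and in edgeR without db/m replicate 1 (0.42, adjusted p = 0.0368). Hnf4g had -0.02 without a call (edgeR adjusted p = 0.952).

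Markers of tubule segments and of sex-biased expression differed between the same groups, so these differences cannot be told apart by design. Their part in the changes above was not tested. Of all genes tested, 13.1% were called higher and 10.8% lower. All 6 markers of S3, the last segment of the proximal tubule, were called higher, with summed levels of 3098 to 4169 CPM in db/db and 345 to 573 CPM in db/m. For the earlier segments, S1 and S2, 1 of 7 markers was called higher and 4 lower, with sums of 2958 to 3592 CPM in db/db and 2788 to 3606 CPM in db/m. Of 7 genes with male-biased expression in mouse kidney, 6 were called higher, with sums of 42554 to 47517 CPM in db/db and 1284 to 3082 CPM in db/m. All 3 female-biased genes were called lower. Of 4 markers of the distal convoluted tubule, 3 were called lower, with sums of 845 to 924 CPM in db/db and 1218 to 1904 CPM in db/m. Of 7 collecting duct markers, 2 were called lower and 1 higher, with sums of 584 to 760 CPM in db/db and 925 to 1397 CPM in db/m. Of 4 markers of the thick ascending limb, edgeR and DESeq2 each called 0, while 2 had lower levels with an unadjusted p below 0.05, and sums ran from 1868 to 3797 CPM in db/db and from 2134 to 3194 CPM in db/m. The S3 marker Cyp7b1, singled out after its values were seen, stood at 7.56, 5.57 and 19.8 CPM in db/m replicates 1 to 3 and at 262, 104 and 209 CPM in db/db replicates 1 to 3. Among the db/db libraries all 6 S3 markers had the order of Mep1b. In db/m Cyp7b1 was lowest in replicate 2, where Mep1b was highest, and Slc7a13, Acsm3 and Slc5a8 were also lowest there. Slc22a7 had the order of Mep1b in db/m too, at 1.34, 13.1 and 5.06 CPM in replicates 1 to 3. Atp11a was highest in db/m replicate 3.

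Markers of other cell types that can carry some of these peptidases were also counted, and their part in the changes above was not tested. The shares over all genes tested were 13.1% higher and 10.8% lower. Of 8 leukocyte markers, 0 were called in edgeR and 0 had an unadjusted p below 0.05, while DESeq2 called 1 lower, with sums of 14.5 to 16.7 CPM in db/db and 20.0 to 27.2 CPM in db/m. Of 6 endothelial markers, 0 were called in edgeR, while 2 were higher at an unadjusted p below 0.05 and 2 in DESeq2, with sums of 332 to 381 CPM in db/db and 239 to 375 CPM in db/m. Of 5 podocyte markers, 0 were called in edgeR, while 1 was higher and 1 lower at an unadjusted p below 0.05, and likewise in DESeq2, with sums of 216 to 299.6 CPM in db/db and 272 to 337 CPM in db/m. Of 6 fibroblast and mural markers, 1 was called higher, Col1a1 (log2 fold change 1.45, edgeR adjusted p = 0.0448), and 0 lower. At an unadjusted p below 0.05, and likewise in DESeq2, 2 of them were higher and 0 lower. Their sums were 145 to 187 CPM in db/db and 113 to 174 CPM in db/m. Adipocyte markers reached 163 CPM in db/m replicate 3 and 347 CPM in db/db replicate 3. Without both of these libraries 3 of the 10 brush border genes, Mep1a, Ggt1 and Cdhr5, were called higher, and Dpp4 and Xpnpep2 lost their calls (edgeR adjusted p = 0.0755 and 0.109), with a median log2 fold change of 0.53 over the 10.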

How the data were processed

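The authors deposited 1 table of raw counts, in whole numbers, with a row per gene symbol and a column per library. The submitters' processing notes name HISAT2, StringTie, SAMtools, fastp, FastQC and DESeq2 without roles or versions. Genome build, annotation and counting settings, strand included, are not given in the sources used, so genes carry no coordinates. Of the annotated exons, 3.67% of Dpp4 and 1.38% of Vil1 overlap a gene on the other strand (GENCODE M21, also used for exon lengths).

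In edgeR 4.0.16 under R 4.3.3, genes were filtered with filterByExpr, libraries were scaled with TMM, and groups were compared with glmQLFTest after glmQLFit without covariates. Benjamini-Hochberg adjustment covered all 16373 genes. The SE is the log2 fold change divided by the square root of F, and 95% intervals use the t distribution with the moderated degrees of freedom. Ratios used exact permutation of the 6 libraries. No 2 libraries of a group agreed within sampling noise, with chi-square over its degrees of freedom at 15.9 to 59.5. The procedure was tested on simulated counts in which few genes were changed. It called 2.4% of 1.3-fold changes, 18% of 1.5-fold, 67.6% of 2-fold and 96.8% of 4-fold changes, and 5.13% of its calls were false. A gene without a call may therefore still have changed by a small fold. More genes differed in the real data. The simulation also gave genes of like level the same spread and changed only well-counted genes. The recovered and false shares may therefore not carry over. Members and lists were chosen with earlier results of these data known, and a few genes of the lists are not reported here and were left out of their counts. Named genes were all members, set partners, and from each pathway list up to 4 genes by p. Some cell markers were also named, of which Slc34a1 and the S3 markers were not chosen by p. For Mep1a, Mep1b and Vil1 the 3 genes of nearest profile were found, of which those of Vil1 (Zfp942, Map3k15 and Ddx52) were within 0.0766. Alternatives were other scalings, DESeq2 1.42.0, limma-voom (limma 3.58.1), other filters, a replicate block and libraries left out.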

Additional observations from a re-analysis of the deposited data

How the results depend on the processing

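Mep1a and Ggt1 were called higher under all 17 alternatives run, with log2 fold changes of 0.91 to 1.69 and 0.85 to 1.598. The brush border genes called higher came to 3 instead of 6 with total counts only, with scaling to pan-proximal tubule markers and without replicate 3 of both groups. Leaving out 1 library at a time gave 5 to 6 called higher and 0 to 2 lower, and leaving out replicate 3 of both gave 0 lower. Over all genes, 532 were higher and 9251 lower with the marker scaling, 1072 and 4883 with total counts only, 1052 and 660 without replicate 3 of both groups. Leaving out 1 library gave 1374 to 2011 higher and 851 to 1523 lower. Same-numbered libraries did not deviate together (r = -0.24, 0.02 and 0.19), so the numbers were not taken to pair libraries, and db/m replicate 1 correlated best with db/db replicate 2 (r = 0.33). With the replicate block, 1 brush border gene was lower (Xpnpep2 lost its call, edgeR adjusted p = 0.0568), and 1313 genes were higher and 973 lower overall. The ratio differences were 0.26 for Mep1b to Mep1a, -1.21 for Dpep1 to Ggt1 and -0.07 for Cdhr5 to Vil1. The block cannot change them, since each replicate number occurs once in each group. Leaving out 1 library gave 0.12 to 0.40, -1.38 to -0.91 and -0.14 to 0.034, where Cdhr5 to Vil1 turned to 0.034 without db/m replicate 2. Signs also turned for Dpep1 (-0.087 with total counts only, -0.44 with the marker scaling), and with the marker scaling for Anpep (-0.15), Myo7b (-0.30), Cdhr5 (-0.071) and Hnf4a (-0.26). Genes near 0 turned when 1 library was left out, with ranges of -0.20 to 0.17 for Mme and -0.12 to 0.077 for Hnf4g. The cause of these turns was not tested. With 3 libraries a group, Dpp4, Xpnpep2 and Vil1 crossed the threshold when 1 library was left out.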

Other observations

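Apical transporters that take up the products of these peptidases, and genes related to them, were described from a list of 8 genes. Of these, 1 was called higher and 1 lower, with a median log2 fold change of -0.15. These counts are near the shares over all genes tested, 13.1% higher and 10.8% lower. Slc6a20b had a log2 fold change of 0.62 (SE 0.09, edgeR adjusted p = 0.00314), and 0.04 with scaling to pan-proximal tubule markers. Slc7a9, the light subunit of the cystine transporter, had -0.51 (SE 0.14, edgeR adjusted p = 0.0401), a call that ended when any library except db/m replicate 3 was left out (edgeR adjusted p = 0.0688 to 0.125). The neutral amino acid transporter Slc6a19 and the imino acid transporter Slc6a20a had -0.74 and -0.29 without a call. Both were called lower with total counts only (-0.99 and -0.55) and with the marker scaling (-1.30 and -0.87). Over all genes, these scalings gave 4883 and 9251 lower calls. Slc6a19 was also called lower in DESeq2 (-0.72, adjusted p = 0.0141). Of 9 markers of injured proximal tubule, 0 were called higher in edgeR, in DESeq2 or at an unadjusted p below 0.05, and 1, Spp1, was called lower by -1.61 (SE 0.24), with summed levels of 542 to 780 CPM in db/db and 1272 to 2114 CPM in db/m. Spp1 made up most of these sums, and those of the other 8 markers overlapped, at 173 to 227 CPM in db/db and 187 to 316 CPM in db/m. At an unadjusted p below 0.05, 3 of the 9 were lower.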
